A study of Mus musculus with 2 samples.

Results

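The data concern 8 genes of the inflammasome and NF-kB cytokine response, taken by name from the 32285 genes counted in each of 4 single-cell RNA libraries. They are Il1b, Il1a and Tnf (cytokines), Il1rn (a cytokine antagonist), Nlrp3 (an inflammasome sensor), Ptgs2 (a prostaglandin synthase), and Nfkbia and Tnfaip3 (inhibitors of NF-kB). C57BL/6 mice carried either the wild type Ptpn22 allele (PEP-WT) or the pro autoimmune allele made with CRISPR/Cas9 (PEP-619WW). By the study's account, all mice were infected with LCMV-cl13, a strain that sets up a persistent infection, and spleens were taken on day 8. Cells of 4 to 5 age- and sex-matched mice were pooled per genotype and live CD45+ cells were sorted, so that mice cannot be told apart within a library, and uninfected mice are not analysed here. The allele is in the germline and therefore present in every cell type. The study's design text names spleen, whereas the sample labels name liver, a Jurkat cell type and tumor infiltrating cells, and this difference could not be settled. Each genotype has 2 deposited count files, each taken as a library and called run 1 and run 2 here. The barcode totals and median genes per barcode in the study's methods match run 2, while the origin of run 1 is not stated. The runs were therefore kept apart and not treated as replicates.

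Interleukin-1 beta is made as an inactive precursor whose transcription is switched on by NF-kB, and it is cut to its active form by caspase-1 in the inflammasome, a complex that NLRP3 and other sensors assemble. NF-kB is held in the cytoplasm by IkB-alpha, the product of Nfkbia, and both Nfkbia and Tnfaip3 (the ubiquitin-editing enzyme A20) are themselves induced by NF-kB and limit its activity. In the spleen, neutrophils, monocytes and macrophages are the usual sources of these cytokines. Transcript counts show precursor mRNA and not cleaved or secreted protein.

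Members were read in 5 sets of barcodes defined by gene counts, named below by those genes. The S100a8/S100a9 gate (at least 20 unique molecular identifiers, UMIs, of the pair) was meant to hold neutrophils, the Lyz2 gate (at least 5, with no C1qa) monocytes, the C1q gate (at least 5 of C1qa and C1qb) macrophages, the Flt3/H2-Aa gate (a Flt3 UMI and at least 10 of H2-Aa) conventional dendritic cells, and the Cd3e gate (a Cd3e UMI and no Lyz2) T cells. Levels are in CPM, the UMIs of the gene per 1000000 UMIs of the gate. With 1 library per genotype in a run there was no test of genotype. Ratios are PEP-619WW over PEP-WT on the log2 scale with an exact 95% interval, which covers counting error only and neither mice nor the uneven spread of UMIs over barcodes. Fewer cells that make a transcript and less transcript per cell cannot be told apart in these sums.

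The libraries held 14821 (PEP-WT) and 8576 (PEP-619WW) barcodes in run 1 and 9539 and 11029 in run 2, with 55504449 to 77916082 UMIs each and 19 to 49 barcode sequences shared by any pair of libraries. The 8 members made up 0.0506% and 0.039% of all UMIs in run 1, and 0.0555% and 0.127% in run 2. The runs differed in makeup. Cd79a, a B cell gene, was found in 9001 and 4882 barcodes of run 1 but in 10 and 795 of run 2, and the C1q gate took 61.2% of barcodes in the run 2 PEP-WT library against 17.8% in PEP-619WW. In run 2, 431 PEP-WT and 44 PEP-619WW barcodes held at least 3 of 6 melanocyte genes, and no barcode of run 1 did.

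Several gates were mixed, by shared barcodes or by markers that the gates did not use. In run 1 the Lyz2 gate shared 41.5% (PEP-WT) and 55.4% (PEP-619WW) of its barcodes with the S100a8/S100a9 gate. Of run 1 Flt3/H2-Aa gate barcodes 72.3% and 70.5% held Cd79a, against 60.7% and 56.9% of all barcodes, which were shallower. Zbtb46, a marker of conventional dendritic cells, was in 9.49% and 11.4%, against 0.999% and 0.968%. The dendritic cell list summed to 293 and 202 CPM in this gate, against 192 and 146 over all barcodes. The B cell list was at 1608 and 1387, against 2382 and 1787. The run 1 C1q gate held the C1q macrophage list at 1984 and 3004 CPM, against 496 and 782 over all barcodes. It also held the monocyte list at 6851 and 8205, against 4833 and 4900. Cd79a was in 42% and 43.9% of its barcodes, below the 60.7% and 56.9% of all barcodes. The B cell list was lower there too, at 596 and 531 CPM against 2382 and 1787. The Cd3e gate of run 2 held 10 PEP-WT barcodes and was not compared between genotypes, and the Flt3/H2-Aa gate of that library held 48.

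Promoter windows of 300 bases from RefSeq on GRCm38.p6, 250 before to 50 after the annotated start, are shown for the 3 members that hold the kB consensus motif, because NF-kB is the shared regulator of these genes. All 8 members had at least 1 window, 12 in all, and the motif was searched by name on both strands. Capitals mark the matches.
Nfkbia, minus strand, chr12:55492598-55492897: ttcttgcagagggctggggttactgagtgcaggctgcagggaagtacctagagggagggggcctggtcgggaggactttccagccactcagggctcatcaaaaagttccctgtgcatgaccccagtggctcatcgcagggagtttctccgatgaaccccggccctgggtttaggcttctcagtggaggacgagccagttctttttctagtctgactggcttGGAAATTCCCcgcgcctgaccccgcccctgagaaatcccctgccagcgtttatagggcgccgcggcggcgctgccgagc
Tnfaip3, minus strand, chr10:19015361-19015660: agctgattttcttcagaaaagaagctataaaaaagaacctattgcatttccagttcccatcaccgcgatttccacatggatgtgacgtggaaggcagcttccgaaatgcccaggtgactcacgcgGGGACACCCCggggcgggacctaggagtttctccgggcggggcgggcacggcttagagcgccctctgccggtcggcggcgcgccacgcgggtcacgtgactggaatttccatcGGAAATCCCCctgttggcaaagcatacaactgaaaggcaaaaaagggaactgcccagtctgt
Nlrp3, plus strand, chr11:59541319-59541618: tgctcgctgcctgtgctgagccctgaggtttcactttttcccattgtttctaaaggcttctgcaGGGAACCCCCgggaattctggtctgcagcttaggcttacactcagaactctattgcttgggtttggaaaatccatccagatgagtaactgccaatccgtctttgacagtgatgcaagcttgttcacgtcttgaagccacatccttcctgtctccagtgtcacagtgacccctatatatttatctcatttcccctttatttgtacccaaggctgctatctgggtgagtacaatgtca
The Nfkbia match began 29 bases upstream of the start, the Tnfaip3 matches 125 and 12 bases upstream, and the Nlrp3 match 186 bases upstream. Of all genes with a window, 5.14% (1388 of 27025) held a match, against 3 of the 8 members. The 2 inhibitors of NF-kB were among those 3. The windows of the other 5 members held no match to these letters, which says nothing about more distant elements.

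Il1b (chr2:129364570-129371139, minus strand, GRCm38), the precursor of interleukin-1 beta, was highest in the S100a8/S100a9 gate of every library. Its level there was 2292 CPM in PEP-WT and 1139 in PEP-619WW in run 1, a log2 ratio of −1.01 (−1.05 to −0.97), and 1652 and 2316 in run 2, a ratio of 0.49 (0.43 to 0.54). The PEP-619WW library was thus the lower one in run 1 and the higher one in run 2. The share of the gate's barcodes with an Il1b UMI followed the same order, at 74.7% against 50.2% in run 1 and 71.4% against 79.2% in run 2. After thinning each barcode to 1000 UMIs the shares were 65.3% against 38.9%, and 56.4% against 63.7%. Other markers of the run 2 gate moved too. The monocyte list there summed to 1851 CPM in PEP-WT and 3391 in PEP-619WW, the C1q macrophage list to 4483 and 1682, the T cell list to 47.9 and 281, and the neutrophil list to 2117 and 1766, with all 8 markers of each detected. The Lyz2 gate held 8.81% and 24% of the gate's barcodes as well. Of the neutrophil markers, Cxcr2 was at 274 and 550.0 CPM and Ly6g in 3.22% and 2.43% of barcodes. Their part in the run 2 ratios was not tested. In the Lyz2 gate Il1b stood at 818 and 593 CPM in run 1 (−0.46, −0.52 to −0.41) and at 244 and 558 in run 2 (1.20, 1.10 to 1.29). Among run 1 barcodes of this gate with at most 2 UMIs of S100a8 and S100a9 the order turned, to 52.8 and 70.0 CPM. In the run 2 Lyz2 gate the monocyte list summed to 3615 and 6292 CPM, the C1q macrophage list to 3127 and 2189, the melanocyte list to 378 and 45.8 and the erythroid list to 509.8 and 1.93, and their part in the ratio was not tested. The C1q gate differed between runs as well. Il1b was there at 145 and 62.3 CPM in run 1 (−1.21, −1.36 to −1.06), and at 34.6 and 239.7 in run 2, 6.92-fold higher in PEP-619WW (2.79, 2.71 to 2.87). The run 1 ratio of this gate was 0.01 with each barcode in 1 gate only and 0.40 among barcodes with at most 2 UMIs of S100a8 and S100a9. In the Flt3/H2-Aa gate the levels were 101 and 38.4 CPM in run 1 (−1.40, −1.68 to −1.12) and 442 and 394 in run 2 (−0.17, −0.37 to 0.05), an interval that spans 0. With at most 2 UMIs of S100a8 and S100a9 the run 1 ratio of that gate turned to 1.31. In the Cd3e gate Il1b was at 14.8 and 12.6 CPM in run 1 and at 25.4 in the PEP-619WW library of run 2. By the share of barcodes, that signal was close to background in run 1. An Il1b UMI was found in 2.03% and 2.57% of Cd3e gate barcodes, and in 1.62% and 1.68% of barcodes with at least 3 Cd79a UMIs, a B cell reference that should lack Il1b (median depths 4226 and 6471 UMIs against 2602 and 3333). Thinned, the shares were 0.69% and 0.813% against 0.747% and 0.595%, with overlapping intervals. The level in the reference was 12.2 and 4.34 CPM. Taken whole, the PEP-619WW Cd3e gate thus had more Il1b UMIs for its depth than the reference. However, 92 of its 113 Il1b UMIs came from 76 barcodes with more than 2 UMIs of S100a8 and S100a9. For PEP-WT, 26 such barcodes held 135 of 162. The remaining Cd3e gate barcodes stood at 2.52 (PEP-WT) and 2.58 (PEP-619WW) CPM, no higher than the reference, which was not split by these genes.

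**Figure D1:**
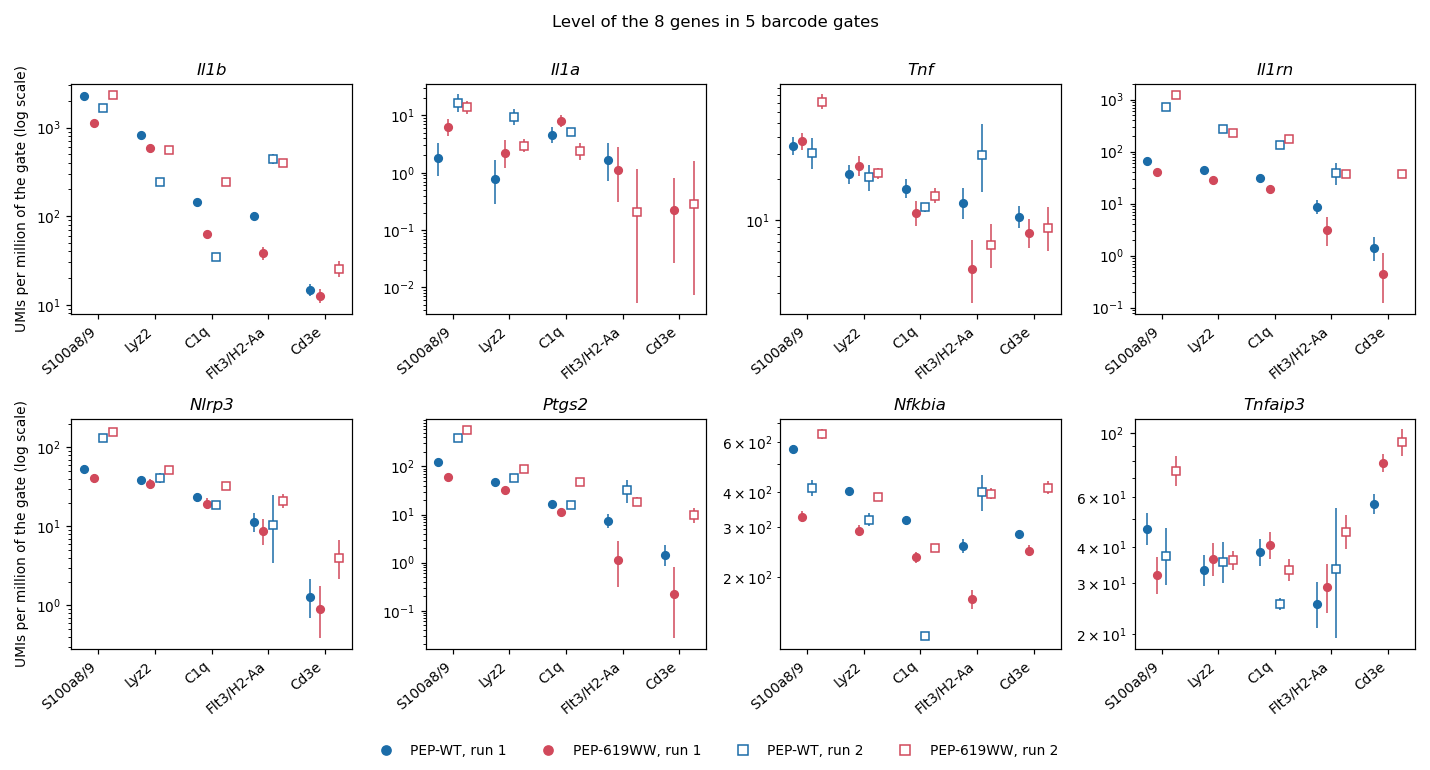
CPM of each of the 8 genes (log axis) in the 5 gates, with 1 point per library and exact Poisson 95% intervals as bars. Il1b and Ptgs2 lie highest in the S100a8/S100a9 gate of all 4 libraries, and Tnfaip3 reaches its highest level in the Cd3e gate of 3.

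Il1a (chr2:129299610-129309972, minus strand), the precursor of interleukin-1 alpha, was rare. In run 1 it had 10 UMIs in PEP-WT and 34 in PEP-619WW in the S100a8/S100a9 gate (1.78, 0.73 to 2.96), where the 34 came from 9 barcodes and 14 of them from a single one. The run 1 Lyz2 gate held 6 and 14 UMIs (1.54, 0.07 to 3.21), and the C1q gate 42 and 66 (0.81, 0.23 to 1.40), of which 1 PEP-619WW barcode held 14. Run 2 gave the opposite order, with intervals clear of 0 in the Lyz2 and C1q gates. Il1a was at 9.5 and 2.98 CPM in the Lyz2 gate (−1.67, −2.28 to −1.05), at 5.11 and 2.4 in the C1q gate (−1.09, −1.62 to −0.60), and at 16.8 and 13.9 in the S100a8/S100a9 gate (−0.27, −0.91 to 0.39). Both C1q gate directions turned under an alternative, to −0.29 in run 1 by the mean over barcodes and to 0.47 in run 2 without barcodes with Ccr2. In run 1 the C1q gate had the highest Il1a level of the 5 gates in both genotypes, with an interval that overlapped that of the S100a8/S100a9 gate. In run 2 the S100a8/S100a9 gate was highest, with an interval that overlapped that of the Lyz2 gate in PEP-WT (11.7 to 23.3 and 6.79 to 12.9). No Il1a UMI was found in 1774 Cd3e gate barcodes of run 1 PEP-WT, which by a floor of 3 counts allows a share of up to 0.169% with a UMI, nor in the 48 Flt3/H2-Aa gate barcodes of run 2 PEP-WT, which allows up to 6.25%.

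Tnf (chr17:35199381-35202007, minus strand), which encodes tumor necrosis factor, had nearly the same level in the run 1 S100a8/S100a9 gate of both genotypes, 34.3 and 37.3 CPM (0.12, −0.17 to 0.41). In run 2 it was 30.7 and 71.4 CPM there (1.22, 0.82 to 1.63), higher in PEP-619WW. The Lyz2 gate had 21.4 and 24.8 CPM in run 1 and 20.4 and 21.8 in run 2, with intervals of the ratio that span 0 in both runs. In the C1q gate Tnf was at 16.9 and 11.3 CPM in run 1 (−0.59, −0.98 to −0.21) and at 12.5 and 15.1 in run 2 (0.28, 0.06 to 0.49). Of the 4 gates compared in both runs, the Flt3/H2-Aa gate was the one where Tnf was lower in PEP-619WW in both. Barcodes outside all gates had 5.9 and 3.5 CPM in run 1 (−0.75, −1.09 to −0.43) and 17.2 and 16 in run 2 (−0.10, −0.42 to 0.22). Levels in the Flt3/H2-Aa gate were 13.3 and 4.46 CPM in run 1 (−1.57, −2.46 to −0.76) and 29.5 and 6.67 in run 2 (−2.14, −3.09 to −1.12). The run 2 PEP-WT value rests on 14 UMIs, which came from 4 barcodes. Markers of that run 2 gate moved too, with the erythroid list at 5267 and 1.25 CPM, the T cell list at 2.11 and 367 (1 and 8 of 8 markers detected), the monocyte list at 882 and 1649, the C1q macrophage list at 1065 and 365, and Zbtb46 in 22.9% and 37.5% of barcodes. Their part in the Tnf ratio was not tested.

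Il1rn (chr2:24336853-24351494, plus strand) encodes the interleukin-1 receptor antagonist, which occupies the receptor without signaling. It had its highest level in the S100a8/S100a9 gate of all 4 libraries, with 64.9 and 41.1 CPM in run 1 (−0.66, −0.91 to −0.41) and 714 and 1225 in run 2 (0.78, 0.70 to 0.86). Both run 2 values lay above both run 1 values by more than the intervals. In the Lyz2 gate it was at 43.7 and 28.6 CPM in run 1 (−0.61, −0.88 to −0.35) and 278 and 232 in run 2 (−0.26, −0.35 to −0.16), lower in PEP-619WW both times. The C1q gate had 31.7 and 19.2 CPM in run 1 (−0.72, −1.01 to −0.43) and 133 and 176 in run 2 (0.41, 0.34 to 0.47). In the Flt3/H2-Aa gate of run 1 Il1rn was at 8.63 and 3.06 CPM (−1.49, −2.60 to −0.51), from 41 and 11 UMIs, and in run 2 at 37.9 and 36.5 (−0.06, −0.76 to 0.73).

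Nlrp3 (chr11:59541568-59566956, plus strand), the sensor that nucleates the inflammasome, differed between genotypes by 1.29-fold in run 1 and 1.18-fold in run 2 in the S100a8/S100a9 gate. There it had 52.9 and 40.9 CPM in run 1 (−0.37, −0.63 to −0.12) and 132 and 156 in run 2 (0.24, 0.03 to 0.45). The gates fell in the same order in all 4 libraries for the first 2 places, S100a8/S100a9 before Lyz2, although the intervals of that pair overlapped in run 1 PEP-619WW. In the C1q gate Nlrp3 was at 23.2 and 19.3 CPM in run 1 (−0.26, −0.57 to 0.04) and at 18.6 and 32 in run 2 (0.78, 0.63 to 0.93). The Lyz2 gate had 38.5 and 34.3 CPM in run 1 (−0.16, −0.42 to 0.09) and 40.8 and 51.8 in run 2 (0.34, 0.11 to 0.59).

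Ptgs2 (chr1:150100031-150108227, plus strand), the inducible cyclooxygenase that makes the prostaglandin precursor, took the same course as Il1b in the S100a8/S100a9 gate. It was at 123 and 60.1 CPM in run 1 (−1.04, −1.23 to −0.84) and at 386 and 565 in run 2 (0.55, 0.43 to 0.67). In the Lyz2 gate the levels were 46.6 and 32.7 CPM in run 1 (−0.51, −0.76 to −0.26) and 58.4 and 89.1 in run 2 (0.61, 0.42 to 0.81). The order of the genotypes turned between runs in both gates. The C1q gate had 16.5 and 11.4 CPM in run 1 (−0.53, −0.92 to −0.15) and 15.5 and 47.4 in run 2 (1.61, 1.47 to 1.75). The run 1 order of that gate turned with exclusive gates. It also turned among barcodes with at most 2 UMIs of S100a8 and S100a9, to 7.75 and 13 CPM. In the Flt3/H2-Aa gate of run 1, 35 Ptgs2 UMIs were counted in PEP-WT and 4 in PEP-619WW (−2.72, −4.68 to −1.24).

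Nfkbia (chr12:55489410-55492647, minus strand), which encodes IkB-alpha, was present in every gate, lymphoid ones included. In run 1 it was lower in PEP-619WW in all 5 gates. The S100a8/S100a9 gate had 567 and 327 CPM (−0.79, −0.88 to −0.71), the Lyz2 gate 403 and 292 (−0.46, −0.55 to −0.38), the C1q gate 318 and 235 (−0.44, −0.52 to −0.35), the Flt3/H2-Aa gate 258 and 167 (−0.63, −0.78 to −0.49) and the Cd3e gate 283 and 248 (−0.19, −0.27 to −0.11). It was lower too in the B cell reference of that run, at 199.8 and 135 CPM (−0.56, −0.64 to −0.49). The erythroid list was also lower in PEP-619WW in these 5 gates, at 2698 and 1268 CPM, 2264 and 1302, 1953 and 355, 1664 and 118, and 2459 and 273 in the same order, and over all barcodes, at 13366 and 1737. With immunoglobulin, hemoglobin and mitochondrial genes left out of the scaling, all 36 run 1 ratios of members stayed within their counting intervals. Any other part of the erythroid list in the Nfkbia ratios was not tested. In run 2 the order turned in the S100a8/S100a9 gate, at 413 and 639 CPM (0.63, 0.52 to 0.74), in the Lyz2 gate, at 319 and 385 (0.27, 0.19 to 0.36), and in the C1q gate, at 124 and 253 (1.02, 0.96 to 1.08). In the Flt3/H2-Aa gate the run 2 levels were 398 and 394 CPM, with an interval that spans 0.

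Tnfaip3 (chr10:19000910-19015657, minus strand), which encodes A20, was the one member with its highest level in the Cd3e gate, in the 3 libraries where that gate held more than 20 barcodes. It was at 56.4 and 78.7 CPM there in run 1 (0.48, 0.32 to 0.64), and at 92.7 in PEP-619WW in run 2. The intervals of the run 1 PEP-WT and the run 2 value overlapped those of the S100a8/S100a9 gate, which came next in both. In the S100a8/S100a9 gate the levels were 46.4 and 32 CPM in run 1 (−0.54, −0.82 to −0.26) and 37.4 and 73.9 in run 2 (0.98, 0.62 to 1.36). The C1q gate of run 2 had it at 25.4 and 33.3 CPM (0.39, 0.25 to 0.54), higher in PEP-619WW. For the Lyz2 and Flt3/H2-Aa gates of both runs, and the C1q gate of run 1, the interval of the ratio spans 0.

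Counted over gates, a ratio was called when it reached 2-fold with at least 20 UMIs over both genotypes, and the share of all genes of the gate called the same way serves as background. In run 1, 36 pairs of member and gate could be read of 40, of which 27 lay below 0 and 9 above, with 7 called lower and 2 called higher in PEP-619WW. In run 2, 31 of 32 pairs could be read, of which 9 lay below 0 and 22 above, with 3 called lower and 5 called higher. The median over all genes was itself above 0 in the run 2 gates, at 0.21, 0.24, 0.11 and 0.31. In the run 1 gates it was −0.11, −0.10, −0.02, −0.05 and 0.02. These tallies therefore do not by themselves set the members apart, and the background of the calls is given by gate below. Of the 31 pairs read in both runs, 11 had the same sign and 20 the opposite one, where 49.4% of all genes read in both runs had opposite signs over the same 4 gates. In the S100a8/S100a9 gate 7 of 8 members turned (50.3% of all genes), in the Lyz2 gate 5 of 8 (55.6%), in the C1q gate 7 of 8 (43.2%) and in the Flt3/H2-Aa gate 1 of 7 (48.6%). Of the members of the Flt3/H2-Aa gate Tnf alone had an interval clear of 0 in both runs. In run 2 PEP-WT, however, a single barcode held 9 of its 14 UMIs, a spread that the interval does not cover.

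In the run 1 S100a8/S100a9 gate 2 of 8 members were called lower (Il1b and Ptgs2) and 1 higher (Il1a), where 3.7% of all genes were called lower and 1.85% higher. The median log2 ratio of the members was −0.60, against −0.11 for all genes. The run 1 Lyz2 gate had 1 of 8 called higher (Il1a, background 1.96%) and 0 lower (2.81%), with medians of −0.31 and −0.10. The run 1 C1q gate had 1 of 8 called lower (Il1b, background 2.62%) and 0 higher (1.96%), with medians of −0.49 and −0.02. The run 1 Flt3/H2-Aa gate had the most. There 4 of 7 members were called lower (Tnf, Il1b, Il1rn and Ptgs2, background 2.63%) and 0 higher (2.2%), with medians of −1.40 and −0.05. The Il1b call turned to 1.31 with at most 2 UMIs of S100a8 and S100a9. The neutrophil marker list summed to 501 and 122 CPM in that gate, with all 8 markers detected in both libraries. In the run 1 Cd3e gate 0 of 5 passed either way (1.99% higher and 2.27% lower in the background).

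In run 2 the background itself was wide. In the S100a8/S100a9 gate 1 of 8 members was called higher (Tnf) and 0 lower, where 11.6% and 6.74% of all genes were, so that the count was close to the background. In the Lyz2 gate 1 of 8 was called higher (Il1b, background 11.6%) and 1 lower (Il1a, background 3.88%). In the C1q gate 3 of 8 were called higher (Il1b, Ptgs2 and Nfkbia, background 10.5%) and 1 lower (Il1a, background 8.88%). In the Flt3/H2-Aa gate 1 of 7 was called lower (Tnf, background 2.41%) and 0 higher (21.5%). Member medians were 0.59, 0.18, 0.59 and −0.06 in these 4 gates, beside 0.21, 0.24, 0.11 and 0.31 for all genes.

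**Figure D2:**
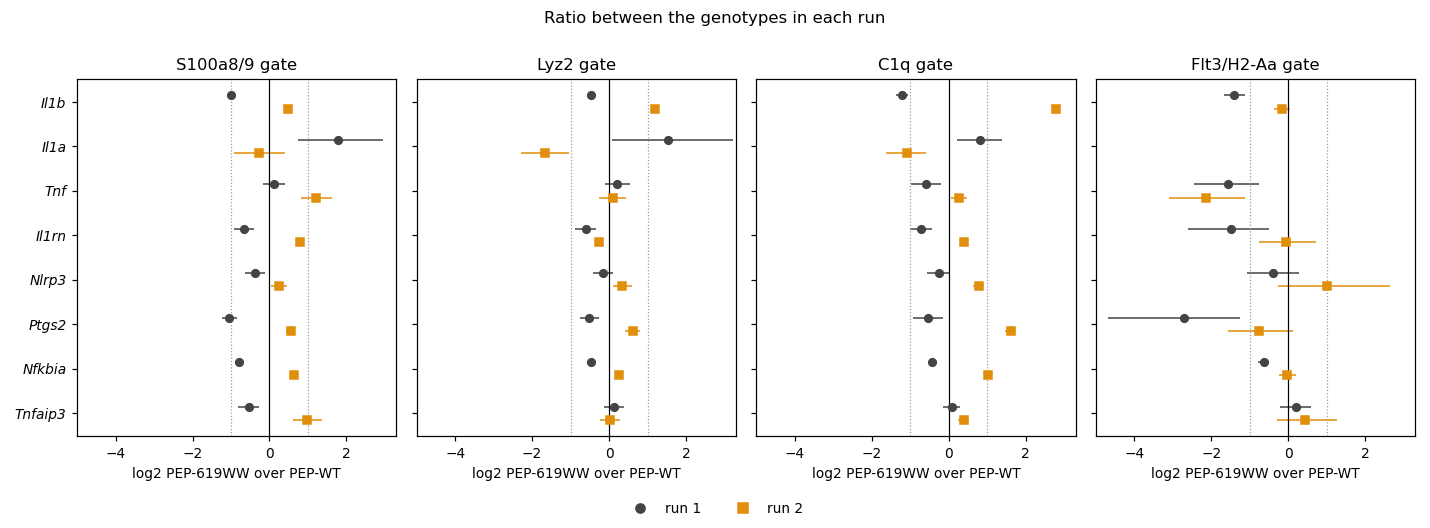
Log2 ratio of CPM, PEP-619WW over PEP-WT, for each member and gate, with run 1 and run 2 as separate points and exact 95% counting intervals as bars. In the C1q gate Il1b lies at −1.21 in run 1 and 2.79 in run 2, while in the Flt3/H2-Aa gate Tnf lies at −1.57 and −2.14.

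Neutrophil granule genes moved with the run 1 difference in the S100a8/S100a9 gate. Ngp, Camp and Ltf encode secondary granule proteins, made by immature neutrophils. No UMI of the trio was found in 65% of the gate's barcodes in PEP-WT and in 32.3% in PEP-619WW, and the whole neutrophil marker list summed to 16091 and 26767 CPM. Among barcodes with none of the 3, Il1b stood at 3056 (PEP-WT) and 1793 (PEP-619WW) CPM, and among barcodes with 1 to 5 UMIs at 2380 and 1557. Among barcodes with more than 5, which were 22.7% and 40.2% of the gate, it stood at 547 and 550.3. Il1b was thus lower in PEP-619WW in the first 2 strata, while in the third the genotypes overlapped (510.1 to 586 and 523 to 579). Cxcr2, a chemokine receptor of mature neutrophils, had the same order, at 309.9 and 149.7 CPM in the first stratum, 303 and 238 in the next, and 212 in both genotypes in the third. Csf3r, the G-CSF receptor gene, was at 476 and 315 CPM in the first stratum and at 174 and 157 in the third. Retnlg, Ly6g and Mmp8, the other neutrophil markers read by stratum, were higher in PEP-619WW in the first. They were at 4593 and 5328, 59.4 and 78.5, and 129 and 151 CPM there, with overlapping intervals for Ly6g and Mmp8. In the third stratum Retnlg was at 12536 and 19808 CPM and Mmp8 at 774 and 1064. The part of these markers in the Il1b values was not tested. Nfkbia was lower in PEP-619WW in all 3 strata, at 642 and 410, 626 and 400, and 368 and 246 CPM. For Ptgs2 the strata gave 168 and 110, 105 and 59.1, and 32.7 and 27.6 CPM. Restricted to barcodes with at most 5 UMIs of the trio, the log2 ratios of Il1b and Ptgs2 were −0.78 and −0.77, under 2-fold. In run 2, 98.3% and 97.9% of the gate's barcodes had none of the trio, and the lists summed to 2117 and 1766 CPM.

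**Figure D3:**
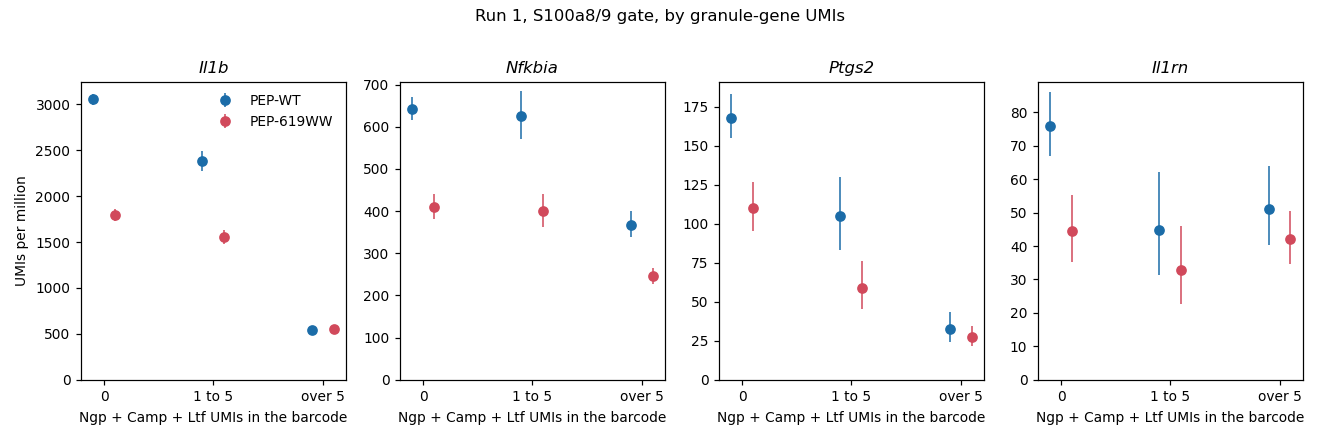
CPM in the run 1 S100a8/S100a9 gate, by UMIs of Ngp, Camp and Ltf per barcode (0, 1 to 5, more than 5), for both genotypes, with exact Poisson 95% intervals. Il1b is at 3056 and 1793 in barcodes with none of the 3 granule genes and at 547 and 550.3 in barcodes with more than 5.

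In the other gates too, most of the Il1b signal of run 1 sat in barcodes with more than 2 UMIs of S100a8 and S100a9. In PEP-WT these held 6227 of 6428 Il1b UMIs of the Lyz2 gate, 1090 of 1315 of the C1q gate and 449 of 482 of the Flt3/H2-Aa gate. In PEP-619WW they held 3583 of 3733, 305 of 509 and 86 of 138. The S100a8/S100a9 gate shared 444 PEP-WT barcodes with the Lyz2 gate, 64 with the C1q gate and 27 with the Flt3/H2-Aa gate, and in PEP-619WW 464, 62 and 5. Together these calprotectin genes stood at 36684 (PEP-WT) and 59636 (PEP-619WW) CPM in the run 1 Lyz2 gate, and 2214 and 1696 in run 2. Among barcodes with at most 2 UMIs of the pair, Il1b in the run 1 Lyz2 gate was at 52.8 CPM in PEP-WT (499 barcodes) and 70.0 in PEP-619WW (232 barcodes). For the C1q gate of that run it was at 32.9 and 43.6, and in the Flt3/H2-Aa gate at 8.39 and 20.8. Among these barcodes Il1b was thus no lower in PEP-619WW in any of the 3 gates, with intervals that overlapped in the Lyz2 gate (45.8 to 60.7 and 59.2 to 82.1). Among the remaining barcodes, with more than 2 UMIs of the pair, Il1b was at 1538 and 863 CPM in the Lyz2 gate, 482 and 87.5 in the C1q gate, and 549.7 and 79 in the Flt3/H2-Aa gate. These barcodes were a larger share of each gate in PEP-619WW, at 53.3% and 72.3%, 16.9% and 35.6%, and 12.4% and 20.5%. The pair was also higher in PEP-619WW in the B cell reference, at 104 and 178 CPM, and outside the gates, at 80.3 and 294. The part of this background in the split was not tested. Other members did not all follow Il1b. Under the limit of 2 UMIs of the pair, Tnf in the run 1 Flt3/H2-Aa gate was still lower in PEP-619WW, at 10.7 and 4 CPM (−1.42), as was Il1rn, at 6.61 and 2 (−1.72), and Nfkbia, at 234 and 134 (−0.80), while Ptgs2 was left with 7 and 3 UMIs. In the run 1 C1q gate Nfkbia was likewise lower under the limit, at 289 and 234 CPM, whereas Ptgs2 was at 7.75 and 13, with intervals that overlapped. The 10% of run 1 C1q gate barcodes with the most Il1b held 91.4% and 92.3% of its UMIs. In run 2 the order held under the same limit, at 158 and 446 CPM in the Lyz2 gate and 24.7 and 200.3 in the C1q gate.

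**Figure D4:**
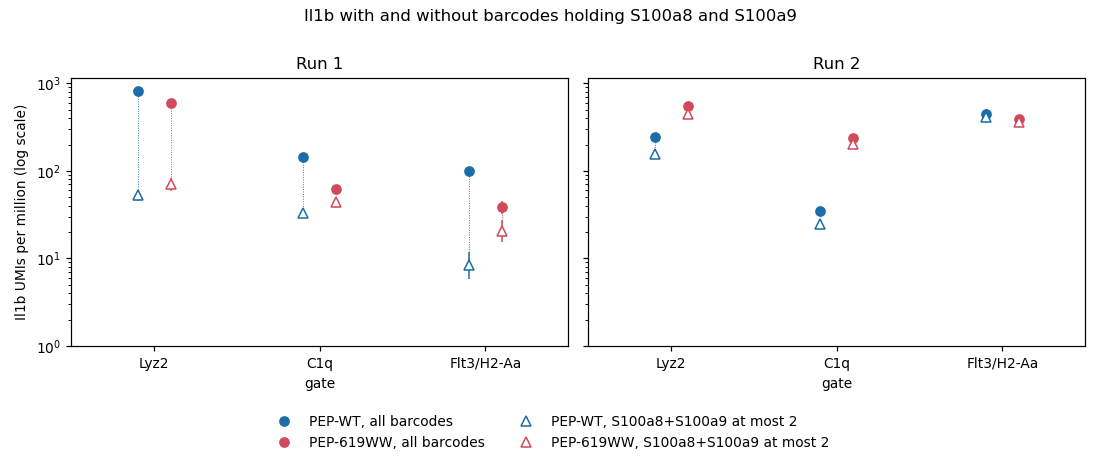
Il1b CPM in the gates other than S100a8/S100a9, for all barcodes of the gate and for those with at most 2 UMIs of S100a8 and S100a9, with exact Poisson 95% intervals (log axis). In the run 1 Lyz2 gate the values go from 818 and 593 to 52.8 and 70.0, and in the run 2 C1q gate from 34.6 and 239.7 to 24.7 and 200.3.

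The run 2 C1q gate differed in other markers as well. The monocyte list summed to 1423 CPM in PEP-WT and 4604 in PEP-619WW, the C1q macrophage list to 8203 and 5356, and the T cell list to 14.1 and 230.1, with all 8 markers of each list detected in both libraries. The melanocyte list summed to 171 and 68.6 CPM and the erythroid list to 381 and 1.32, with Alas2 at 0 in PEP-619WW. The part of these lists in the members' ratios was not tested. Ccr2, the chemokine receptor of inflammatory monocytes, had a UMI in 1504 of 5839 PEP-WT barcodes of the gate and in 1619 of 1968 PEP-619WW barcodes. Split by Ccr2, after these values had been seen, Il1b was at 81.1 and 254 CPM in barcodes with a Ccr2 UMI (1.65, 1.56 to 1.74), and at 17.4 and 137 in those without (2.97, 2.77 to 3.17). The higher Il1b of PEP-619WW was therefore present in both strata. Ptgs2 was at 20.2 and 44.3 CPM with Ccr2 (1.13, 0.93 to 1.33) and at 13.8 and 69.1 without (2.33, 2.05 to 2.60). Nfkbia was at 182 and 256 with Ccr2 (0.49, 0.42 to 0.56), under 2-fold, and at 103 and 229 without (1.15, 1.01 to 1.29). Il1a was lower in PEP-619WW with Ccr2, at 3.18 and 1.58 CPM (50 and 22 UMIs), but not without, at 5.83 and 8.07 (0.47, −0.36 to 1.20). In run 1 the lower Il1b of PEP-619WW was seen in C1q gate barcodes with Ccr2, at 193 and 53.7 CPM (−1.85, −2.06 to −1.64), and to a smaller extent without, at 94.6 and 72.8 (−0.38, −0.60 to −0.15).

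Members were also found together in single barcodes, compared after thinning to 1000 UMIs, which leaves out barcodes with fewer. In the run 1 S100a8/S100a9 gate Ptgs2 was found in 23.7% of PEP-WT barcodes with Il1b and in 1.86% of those without, and in PEP-619WW in 12.7% and 1.42%. Nfkbia was found in 51.1% against 24.9% (PEP-WT) and in 32.8% against 15.8% (PEP-619WW). The shares of Ptgs2 and Nfkbia beside Il1b were thus lower in PEP-619WW by more than the counting intervals (46.6% to 55.5% against 27.6% to 38.3% for Nfkbia). Nlrp3 accompanied Il1b about equally in both genotypes, in 11.4% and 10.5% of barcodes with it, against 2.6% and 2.23% without. In run 2 barcodes without Il1b also often held Ptgs2, Il1rn and Nfkbia. Ptgs2 was in 33.7% of PEP-WT barcodes with Il1b and 31.9% without, and Il1rn in 41.6% and 50.5%. In PEP-619WW of run 2 Ptgs2 was in 41.6% and 28.3%, and Il1rn in 56% and 54.1%. Nfkbia was in 28.7% with Il1b and 27.8% without in PEP-WT, and in 37.8% and 29.5% in PEP-619WW. Nlrp3 was still found more with Il1b than without, in 20.8% against 11.6% of PEP-WT barcodes and 19.9% against 10.0% of PEP-619WW barcodes. In the run 2 Lyz2 gate Il1rn was found in 23.9% of PEP-619WW barcodes with Il1b and in 13.4% of those without, but in PEP-WT in 18.8% and 17.7%, with intervals that overlapped.

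Of the rest of the pathway, 64 genes were listed by role. In run 1, where 1.85% to 2.2% of all genes were called higher and 2.27% to 3.7% lower in a gate, the counts were 1 higher and 1 lower of 58 in the S100a8/S100a9 gate, 3 and 2 of 58 in the Lyz2 gate, 0 and 0 of 57 in the C1q gate, 1 and 3 of 56 in the Flt3/H2-Aa gate, and 1 and 1 of 54 in the Cd3e gate. Il18, the other cytokine that caspase-1 cleaves, was lower in PEP-619WW in the S100a8/S100a9 gate, at 32.6 and 11.9 CPM (−1.46). Mefv, which encodes the sensor pyrin, gave −0.98 there and −1.03 in the Lyz2 gate. Cxcl2, a neutrophil chemoattractant, was higher in the Lyz2 gate, at 224 and 453 CPM (1.02), and the interleukin-18 receptor gene Il18r1 was higher in the Cd3e gate, at 139 and 281 (1.02).

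In run 2 the counts were 14 higher and 0 lower of 56 in the S100a8/S100a9 gate, where 11.6% of all genes were higher and 6.74% lower, 14 and 3 of 63 in the Lyz2 gate (11.6% and 3.88%), and 22 and 0 of 62 in the C1q gate (10.5% and 8.88%). The Flt3/H2-Aa gate had 9 and 4 of 57, where 21.5% of all genes were higher and 2.41% lower. The median log2 ratios were 0.70, 0.52, 0.68 and 0.16, beside 0.21, 0.24, 0.11 and 0.31 for all genes. In the C1q gate, against that background of 10.5%, 4 of 5 NF-kB subunit genes were higher, Nfkb1 at 1.05, Nfkb2 at 1.17, Rel at 1.21 and Relb at 1.37. This was not particular to that gate. In the S100a8/S100a9 and Lyz2 gates 3 of 5 were higher in each (median 1.02 in both), and in the Flt3/H2-Aa gate 0 of 5 (median 0.04). Of 13 genes listed as inhibitors beside the members 7 were higher in the C1q gate (median 1.24), of 17 measured induced genes 6, and of 10 sensors and inflammasome parts 1. The inhibitor list is broad and holds Nfkbiz, Bcl3, Birc3, Zfp36 and Tnfaip2, so its count is not one of NF-kB inhibitors alone. In the S100a8/S100a9, Lyz2 and Flt3/H2-Aa gates 5, 3 and 1 of its 13 genes were higher. In the S100a8/S100a9 gate Traf1, a signaling adaptor, was at 23 and 83.7 CPM (1.86), and Pycard, the inflammasome adaptor ASC, was lower in PEP-619WW at 362 and 205 (−0.82). In the Lyz2 gate Cxcl1, a neutrophil chemoattractant, was at 11.9 and 1.1 CPM (−3.43). Il18r1 had 1 UMI in PEP-WT and 192 in PEP-619WW in that gate, and 7 and 103 in the C1q gate. The T cell marker list moved the same way in the C1q gate, from 14.1 to 230.1 CPM, and in the Lyz2 gate, from 29.2 to 254, and its part in the Il18r1 values was not tested.

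Across the 20 profiles of gate and library, which overlap in barcodes and share libraries, likeness was described by Pearson's r of log2(CPM + 10) over 10554 genes. Among members, Nlrp3 and Ptgs2 were most alike (r = 0.954), followed by Il1b with Nlrp3 (0.889) and with Ptgs2 (0.883), whereas Tnfaip3 and Il1b gave −0.288. Genes nearest to Ptgs2 were Slc7a11 (0.993), a cystine transporter, Arg2 (0.979) and Hcar2 (0.966). Those nearest to Il1rn were Clec4d (0.974), Ier3 (0.973) and Fnip1 (0.961), and those nearest to Nlrp3 were Il15 (0.979), Sirpb1b (0.966) and Clec4e (0.958). Il1b was nearest to Gcnt2 (0.967), Rasgrp4 (0.955) and Zfp36 (0.955), the last an RNA-binding protein that destabilizes cytokine transcripts. The likeness was weaker for Tnfaip3, nearest to Fam102a (0.902), Chd2 (0.888) and Ogt (0.868), and for Nfkbia, nearest to Il1r2 (0.863), Stx11 (0.86) and Amn1 (0.847). Tnf was nearest to Kbtbd7 (0.901), Pdlim7 (0.901) and B4galt3 (0.899), and Il1a to Gm49774 (0.883), Rab20 (0.879) and A930007I19Rik (0.876). The run 2 PEP-WT profile of the Cd3e gate rests on 10 barcodes.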

How the data were processed

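Sorted CD45+ cells, of spleen per the study's methods, were counted by the authors with Cell Ranger against mm10 (version 6.0.0 per the labels, while the paper's methods name a different one), and the deposited files hold raw UMI counts per gene and barcode, with no normalization. The 4 libraries are 2 per genotype, and no filter on the deposited barcodes after Cell Ranger is stated. The paper limited its T cell subsets by Mt2 expression, a limit not used here. Of 32285 genes 32158 matched a symbol. Doublets were not called. Reads were not reprocessed.

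Counts were summed per gate and library with Python 3.11.15, numpy 2.4.6 and scipy 1.17.1. Levels carry exact Poisson intervals, shares exact Clopper-Pearson intervals, and ratios the exact conditional interval for 2 Poisson counts, all at 95%. They cover counting error only. The ratio code was tested on simulated counts. Ratios needed 20 UMIs over both genotypes and, a limit chosen after seeing the data, 20 barcodes in each. Cxcr2, Csf3r, Retnlg, Ly6g, Mmp8, Ccr2 and the NF-kB subunits of run 2 were named after their values were seen. Genes of the inhibitor list were named to describe that list. Other named genes were the 8 members, at most 2 highest and 2 lowest pathway genes with at least 50 UMIs per gate and run, and the 3 genes nearest each member. Median library depth ran from 2832 to 4837 UMIs per barcode. Members and lists were chosen with earlier results of these data known. Alternatives covered gates, thinning, scaling and barcode filters, and 4 limits on S100a8 and S100a9, granule genes, Cd79a and Ccr2 were chosen after seeing the data. Promoters came from RefSeq, and positions from GENCODE vM21. Protein sequences were not used here.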

Additional observations from a re-analysis of the deposited data

Results flagged for a closer look

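In 8 pairs of member and gate the genotypes stood in opposite order in the runs, with at least 1 ratio past 2-fold and both intervals clear of 0. The difference between runs was not tested, since each run holds 1 library per genotype. Values are log2 ratios of PEP-619WW over PEP-WT. In the S100a8/S100a9 gate Il1b was at −1.01 in run 1 and 0.49 in run 2, and Ptgs2 at −1.04 and 0.55. In the Lyz2 gate Il1a was at 1.54 and −1.67, and Il1b at −0.46 and 1.20. The C1q gate held the other 4. Il1a was there at 0.81 and −1.09, Il1b at −1.21 and 2.79, Ptgs2 at −0.53 and 1.61, and Nfkbia at −0.44 and 1.02. In 4 of these 8 pairs the order was no longer opposite under at least 1 alternative. With at most 2 UMIs of S100a8 and S100a9 the run 1 ratio was 0.41 for Il1b in the Lyz2 gate, and 0.40 for Il1b and 0.75 for Ptgs2 in the C1q gate. With exclusive gates the latter 2 were at 0.01 and 0.53 in run 1. Il1a in the C1q gate was at −0.29 in run 1 by the mean over barcodes, and at 0.47 in run 2 without barcodes with Ccr2.

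Barcodes outside all gates, which entered no comparison between gates, also held a difference past 2-fold. In run 2 Il1a was at 9.19 CPM in PEP-WT and 3.86 in PEP-619WW there, a log2 ratio of −1.25.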

How the results depend on the processing

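Ratios were recomputed under up to 13 alternatives, 9 planned and 4 added after seeing the data, wherever 20 UMIs remained. The granule-gene limit acts on the S100a8/S100a9 gate alone and the Ccr2 limit on the C1q gate alone. The limit on S100a8 and S100a9 acts on the other gates only. In a gate that a limit leaves unchanged it returns the reported value by construction. Of 569 ratios under the planned ones, 448 stayed within the counting interval of the reported value and 33 changed sign. The settings differed. Exclusive gates kept 14 of 31 within it in run 1 and 15 of 30 in run 2, and thinning 11 of 26 and 12 of 27. All 36 of run 1 and 31 of run 2 stayed within it when shared barcode sequences were left out. The same held for scaling without immunoglobulin, hemoglobin and mitochondrial genes. Il1b in the run 1 C1q gate turned from −1.21 to 0.01 with each barcode in 1 gate only and to 0.40 with at most 2 UMIs of S100a8 and S100a9, a limit under which Il1b in the run 1 Flt3/H2-Aa gate turned from −1.40 to 1.31. Il1a in the run 2 C1q gate turned from −1.09 to 0.47 without barcodes with Ccr2. The 2 calls higher in run 1, both Il1a in gates that share barcodes, became 0 with exclusive gates, thinning, no deepest 5% of barcodes or no Cd79a barcodes, and 1 with doubled thresholds or the gene and mitochondrial limits. A minimum of 50 UMIs also gave 0. These calls were lost because too few UMIs remained for a call. Il1a stayed past 2-fold where it had a value, at 1.20 to 2.04 over 9 alternatives in the S100a8/S100a9 gate. In the Lyz2 gate it was at 1.41 to 1.63 over 6. The settings that took most Il1a UMIs out left no value, so these ranges say nothing about them. The 7 called lower in run 1 became 3 with doubled thresholds and 4 without Cd79a barcodes. Of these, Tnf (−2.08 to −1.33), Il1rn (−1.97 to −1.42) and Ptgs2 (−2.73 to −2.15) in the Flt3/H2-Aa gate stayed past 2-fold wherever they had a value. They had one in 12, 10 and 8 alternatives. The limit on S100a8 and S100a9 left Ptgs2 with 7 and 3 UMIs, 1.78 (PEP-WT) and 1.2 (PEP-619WW) CPM, too few for a value. The ranges say nothing about settings that left no value. The Il1b calls, and Ptgs2 in the S100a8/S100a9 gate, fell within 2-fold in some alternatives. The 5 called higher in run 2 became 3 with exclusive gates and 3 with the mean over barcodes. Il1b in the run 2 C1q gate stayed between 2.66 and 3.02 in all 13, and Ptgs2 there between 1.37 and 2.33, with the granule-gene limit unable to move either. Il1b in the run 1 S100a8/S100a9 gate ran from −1.39 to −0.78, within 2-fold in 6 of 13. Those 13 include the S100a8/S100a9 and Ccr2 limits, which could not move it. Apart from the gate, Ccr2, S100a8/S100a9 and Cd79a limits, whose own construction takes barcodes out, the cause was not tested. With doubled thresholds the run 2 Flt3/H2-Aa gate held too few barcodes for a value. No paired analysis was possible because each genotype has 1 library per run. Depth limits Il1a most, with 6 to 66 UMIs per library in the S100a8/S100a9, Lyz2 and C1q gates of run 1.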

Other observations

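Over all barcodes of a library, with no gate, Il1b was at 179.8 CPM in PEP-WT and 123 in PEP-619WW in run 1 (log2 ratio −0.54, −0.59 to −0.50), and at 101 and 442 in run 2 (2.13). Barcodes outside the gates were 74% and 67.9% of the run 1 libraries and 25.9% and 38.8% of the run 2 libraries. Among them Il1b was at 15.1 and 9.42 CPM in run 1 (−0.68, −0.88 to −0.48) and at 169 and 279 in run 2 (0.72, 0.63 to 0.82). In run 2 Il1rn, the receptor antagonist, went the other way there, at 349 and 223 (−0.64, −0.72 to −0.57), and Tnfaip3 was at 55.8 and 85.6 (0.62). The run 1 ratios of Il1rn and Tnfaip3 there were −0.88 and 0.07. In run 1 Nfkbia outside the gates was lower in PEP-619WW, at 199 and 153 CPM (−0.38, −0.43 to −0.33), as it was in the 5 gates.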
